A study of Mus musculus with 2 samples.

Results

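The 5 genes described here, *S1pr1* to *S1pr5*, encode the cell surface receptors for sphingosine-1-phosphate (S1P), and were taken by symbol from the 31053 genes of the gene table that both libraries share. All 5 had at least 1 UMI (a molecular tag that counts each captured RNA molecule once) in the kept cells of each library. The data are droplet single-cell RNA-seq of colon cells from bone marrow chimeras, in which CD45.1 recipients carried CD45.2 donor marrow that lacked the IL-10 receptor (IL-10R KO, the *Il10rb* knockout of the study) or both the receptor and ceramide synthase 2 (IL-10R/CerS2 DKO, called DKO below). Loss of the IL-10 receptor in blood-forming cells was thus common to both groups, recipient tissue kept its own genes, and no library of intact marrow was analysed here. Cells had been sorted on CD11b, CD11c and CD64, which mark the myeloid lineage, and carry the label of colon macrophages. The sources differ on the CD45 gate of this sort (CD45.2, any CD45 or none named) and do not make clear which markers were required together. How many mice gave each library is not given in the sources used here. There was 1 library per genotype, so genotype cannot be told apart from mouse, sort or library, no test was run, and every interval below is a 95% interval that covers counting error only.

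S1P is made inside cells by sphingosine kinases, carried out by transporters and broken down by a lyase and by phosphatases, so that it is plentiful in blood and lymph and scarce within tissues. Lymphocytes read this gradient with S1PR1, a receptor coupled to Gi proteins that lets them leave lymphoid organs and tissues, and CD69 on the same cell draws S1PR1 in from the surface. S1PR4 is known as a receptor of blood cells, S1PR2 couples to G12 and G13 proteins and restrains migration, S1PR3 is broadly expressed in vessels and some myeloid cells, and S1PR5 is known for the exit of natural killer cells and patrolling monocytes from bone marrow. Sphingosine comes from ceramide, which links the receptors' ligand to the enzyme deleted in the DKO donors.

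In GRCm38 (mm10), *S1pr1* (ENSMUSG00000045092) lies at chr3:115710433-115715072, minus strand, and *S1pr4* (ENSMUSG00000044199) at chr10:81497747-81500132, minus strand. *S1pr2* (ENSMUSG00000043895, chr9:20962361-20976781) and *S1pr5* (ENSMUSG00000045087, chr9:21242912-21248443) stand on the same strand of the same chromosome with 266131 bases between them, and *S1pr3* (ENSMUSG00000067586) is at chr13:51408639-51422797, plus strand. Each has 1 coding exon, of 1056 to 1200 bases without the stop codon. The other strand carries *Gm32834* at *S1pr3* and *Gm48303* at *S1pr5*.

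The start regions of *S1pr4*, the receptor with the largest lymphoid excess in the KO library, and of *S1pr2*, the myeloid one, are shown to let their base composition be compared. Each run is 300 bases on the minus strand of GRCm38.p6 from RefSeq, 250 before the annotated start and 50 after it, at chr10:81500088-81500387 for *S1pr4* and chr9:20976744-20977043 for *S1pr2*, with every CG pair in capitals.
S1pr4: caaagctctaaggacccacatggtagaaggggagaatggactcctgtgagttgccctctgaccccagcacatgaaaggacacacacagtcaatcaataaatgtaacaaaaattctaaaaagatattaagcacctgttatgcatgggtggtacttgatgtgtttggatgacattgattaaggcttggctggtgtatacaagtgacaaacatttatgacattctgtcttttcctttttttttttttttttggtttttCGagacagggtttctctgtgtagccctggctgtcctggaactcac
S1pr2: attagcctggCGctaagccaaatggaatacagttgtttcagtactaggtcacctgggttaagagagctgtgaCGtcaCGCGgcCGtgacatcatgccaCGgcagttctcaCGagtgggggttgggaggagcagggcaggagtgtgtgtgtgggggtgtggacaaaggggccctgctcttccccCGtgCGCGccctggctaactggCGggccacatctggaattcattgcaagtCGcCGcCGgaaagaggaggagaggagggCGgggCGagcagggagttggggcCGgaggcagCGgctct
*S1pr4* held 1 CG pair and 41% G or C, and 14.1% of the 32851 promoters of the same length in the RefSeq table had no more CG pairs than that. *S1pr2* held 18 pairs and 62% G or C, a number that 71.9% of promoters did not exceed, *S1pr3* held 14 and *S1pr5* 27. *S1pr1* had no entry in this table. CG pairs are a description of the letters only, and libraries of 3′ ends do not show which start was used.

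After the cell filter, 2443 KO and 730 DKO cells were kept, with a median of 4715 and 3722 UMIs. Each cell was placed in a class by markers that include no S1P receptor, which left 11.8% of KO and 13.3% of DKO cells ungated. Monocyte/macrophage-like cells were the largest class, with 1455 KO and 302 DKO cells, but the sort had not left lymphocytes out: 201 KO and 155 DKO cells were B cell-like and 279 and 102 T cell-like. Neutrophil-like cells numbered 147 and 43, dendritic cell-like cells 40 and 23, NK/innate lymphocyte-like cells 9 and 4, and plasma cell-like cells 8 and 1. In each of the B, T, neutrophil and monocyte/macrophage-like classes, every gate marker was found in both libraries. The deleted gene *Cers2* had 413 UMIs in KO and 0 in DKO monocyte/macrophage-like cells, and 2 UMIs over all DKO cells, 1 of them in a T cell-like cell. *Il10rb*, disrupted in the donors of both groups, had 74 UMIs in KO and 14 in DKO cells, among them 18 and 0 in T cell-like cells, and since the counts do not show which part of the gene they came from, they do not check that label. Only 1 barcode occurred in both libraries.

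*S1pr1* and *S1pr4* were carried by lymphoid cells. Over the lymphoid classes together (B, plasma, T and NK/innate lymphocyte-like), *S1pr1* stood at 95.6 UMIs per 1000000 UMIs of the class (CPM) in KO against 2.89 CPM in myeloid cells, a 33.1-fold difference, and at 108 against 3.82 CPM in DKO, or 28.3-fold. Lymphoid cells were 20.3% of kept KO cells and held 85.3% of the *S1pr1* UMIs, and in DKO they were 35.9% of cells and held 87.7%. The log2 ratio of lymphoid over myeloid cells, with 0.5 counts added to each sum, was 5.03 (4.45 to 5.70) in KO and 4.74 (3.78 to 6.07) in DKO. *S1pr4* had 80 lymphoid and 3 myeloid UMIs in KO with log2 ratio 6.65 (5.27 to 9.17), and 39 and 4 in DKO, where the log2 ratio was 4.42. Both genes were thus past 2-fold in both libraries, as were 17.0% of the 11780 genes with at least 10 UMIs over these cells.

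*S1pr2* ran the other way. It had 87 myeloid and 4 lymphoid UMIs in KO, 9.66 against 1.94 CPM and a log2 ratio of -2.15 (-4.22 to -0.91), and 11 and 0 UMIs in DKO, where its myeloid level was at least 1.51-fold above the level that 3 lymphoid UMIs would give. *S1pr5* had 8 myeloid UMIs in KO and 2 in DKO with 0 in the 497 and 262 lymphoid cells, which is under what this depth can separate, since the interval of its log2 ratio reached 1.36 in KO. With the added counts both *S1pr2* and *S1pr5* were past 2-fold lower in lymphoid cells of both libraries, as were 16.6% of genes. For *S1pr5* in both libraries and for *S1pr2* in DKO that place rests on the counts added to 0, so *S1pr2* is shown past 2-fold in KO alone. *S1pr3* had 12 myeloid and 2 lymphoid UMIs in KO and 1 and 0 in DKO, too few to place it.

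**Figure D1:**
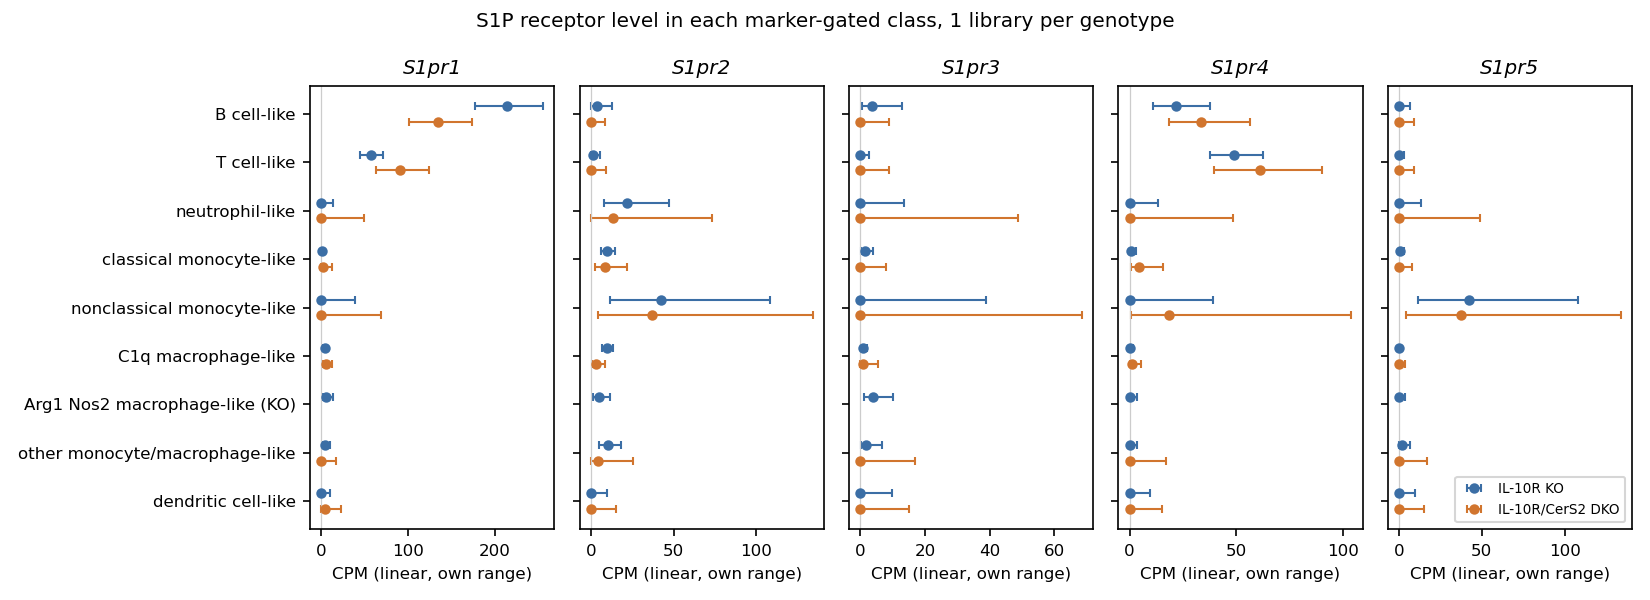
Level of each S1P receptor by class. Each panel is a receptor, the horizontal axis is CPM on a linear scale with its own range, points are the summed UMIs of a class in the KO (blue) or DKO (orange) library, and bars are exact 95% Poisson intervals. The DKO library is not drawn for the Arg1 Nos2 class, which had 2 cells there. *S1pr1* and *S1pr4* stand out in the B and T cell-like classes, *S1pr2* in monocyte-, macrophage- and neutrophil-like cells, and *S1pr5* in nonclassical monocyte-like cells, where few cells leave wide bars.

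B cell-like cells had the highest *S1pr1* level in both libraries. In KO it was 214 CPM, from 119 UMIs in 67 of 201 cells, and in DKO 134 CPM (101 to 174), from 56 UMIs in 40 of 155 cells. T cell-like cells came next, with 57.1 CPM in KO, from 77 UMIs in 35 of 279 cells, and 90.2 CPM (63.5 to 124) in DKO, from 37 UMIs in 23 of 102 cells. The B level was 3.74-fold the T level in KO, where the log2 ratio of T over B was -1.90 (-2.34 to -1.48). In DKO it was 1.49-fold, and there the interval of the log2 ratio reached from -1.21 to 0.05, so the order of these classes rests on the KO library. The T cell-like UMIs were not spread evenly over cells: in KO 10 cells held 3 or more, up to 8 in 1 cell, and 244 cells held none. In the 9 KO and 4 DKO NK/innate lymphocyte-like cells no *S1pr1* UMI was found, which allows a level of up to 82.8 CPM in KO and 178 CPM in DKO.

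Shares of cells were compared after depth was made equal. With each cell thinned to 1500 UMIs, *S1pr1* was found in 21.6% of B cell-like cells in KO and 18.7% in DKO, against 33.3% and 25.8% before thinning, and in 7.61% and 13.7% of T cell-like cells, against 12.5% and 22.5%. Neutrophil-like cells, which had a median of 1622 and 1627 UMIs, showed *S1pr1* in 0 of 147 KO and 0 of 43 DKO cells before thinning and in 0 of 94 and 0 of 26 after it. Before thinning these counts allow a share of cells with a UMI of up to 2.04% and 6.98%, which does not limit the share of cells that express the gene. The median depth was 2470 and 2502 UMIs in B cell-like cells and 3860 and 3456 in T cell-like cells.

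A low level of *S1pr1* was present in monocyte/macrophage-like cells, at 3.12 CPM (2.04 to 4.56) in the KO library and 3.94 CPM (1.58 to 8.11) in DKO. In KO it was found in 21 of 1455 cells, 1.44% at a median depth of 5524 UMIs, and in 0.509% of thinned cells. Of its 26 KO UMIs in this class, 15 lay in C1q macrophage-like cells, 6 in Arg1 Nos2 inflammatory macrophage-like cells, 4 in cells of no subclass and 1 in classical monocyte-like cells. RNA of B cells was also seen in this class: 7 B lineage genes kept out of the gate summed to 16.9 CPM in KO and 23.1 CPM in DKO, with 1 and 3 of the 7 at 0, against 2957 and 3122 CPM in B cell-like cells. For 7 T lineage genes the sums were 3.35 and 2.25 CPM, with 0 and 4 of the 7 at 0, against 1063 and 858 CPM in T cell-like cells. Of the 21 KO cells of this class with *S1pr1*, 2 also carried a B or T gate marker, as did 3.63% of those without it. The part of free RNA in this low level was not tested.

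Among classes with at least 20 cells in each library, *S1pr4* was highest in T cell-like cells, at 49.0 CPM (37.9 to 62.3) in the KO library and 61.0 CPM (39.4 to 90.0) in DKO. It was found in 47 of 279 KO cells, 16.8% before and 6.52% after thinning, and in 16 of 102 DKO cells, 15.7% and 4.9%. B cell-like cells had 21.6 CPM (11.1 to 37.7) in the KO library and 33.5 CPM (18.3 to 56.2) in DKO. The T level was above the B level in KO, with a log2 ratio of 1.14 (0.28 to 2.21), and in DKO the ratio of 0.84 had an interval that took in 0 (-0.14 to 1.92). In KO the order of these classes is therefore the reverse of that of *S1pr1*. The 9 KO NK/innate lymphocyte-like cells held 2 *S1pr4* UMIs, or 55.2 CPM (6.68 to 199), which does not differ from the T level beyond its interval. *S1pr4* had 0 UMIs in neutrophil-like and dendritic cell-like cells of both libraries, and in monocyte/macrophage-like cells it had 3 UMIs in 1455 KO cells and 4 in 302 DKO cells. Of those 3 KO cells 2 also carried a B or T gate marker, and of the 4 DKO cells none did.

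Both receptors were seen in the same cell in 9 of 279 KO and 5 of 102 DKO T cell-like cells, where 5.9 and 3.61 cells would hold both if the genes were found independently. In B cell-like cells the numbers were 2 against 4 in KO and 1 against 2.84 in DKO. Counts this sparse do not show whether the receptors share or avoid cells.

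*S1pr2* was spread over the myeloid classes. Nonclassical monocyte-like cells had 42.2 CPM (11.5 to 108) in the KO library and 37.2 CPM (4.51 to 134) in DKO, from 4 UMIs in 25 cells and 2 in 14. Neutrophil-like cells followed in KO with 21.8 CPM (7.98 to 47.4), from 6 UMIs in 6 of 147 cells, and had 1 UMI in 43 DKO cells. Classical monocyte-like cells had 9.86 CPM (6.18 to 14.9) in the KO library and 8.65 CPM (2.36 to 22.1) in DKO, and C1q macrophage-like cells 9.89 CPM (7.03 to 13.5) and 2.91 CPM (0.601 to 8.51). Monocyte/macrophage-like cells of no subclass had 10.4 CPM (5.17 to 18.5) in KO and 1 UMI in 36 DKO cells. Arg1 Nos2 inflammatory macrophage-like cells, of which 157 were in KO and 2 in DKO, had 4.92 CPM (1.6 to 11.5) in KO. In KO the neighbours in this order had overlapping intervals throughout. Dendritic cell-like cells had 0 UMIs among 40 KO and 23 DKO cells, which allows up to 7.89 and 12.3 CPM. In monocyte/macrophage-like cells *S1pr2* was found in 4.88% of KO and 3.31% of DKO cells before thinning and in 1.6% and 1.05% after it, against 0.717% and 0.362% in KO T cell-like cells. No cell held more than 2 *S1pr2* UMIs. The B and T cell-like classes had 2 UMIs each in KO and 0 in DKO.

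*S1pr5* and *S1pr3* were rare. Of the 13 *S1pr5* UMIs in kept KO cells, 4 were in the 25 nonclassical monocyte-like cells, or 42.2 CPM (11.5 to 108), 2 in 437 classical monocyte-like cells, 2 in monocyte/macrophage-like cells of no subclass and 5 in ungated cells. The share of nonclassical monocyte-like cells with *S1pr5* was 16% in KO and 14.3% in DKO before thinning, and after thinning no such cell showed it in either library. Of those 5 ungated cells, 3 carried at least 2 of the 6 nonclassical monocyte markers. Both DKO UMIs were in the 14 nonclassical monocyte-like cells, at 37.2 CPM (4.51 to 134), and the 608 KO and 165 DKO C1q macrophage-like cells had 0, which allows up to 0.761 and 2.91 CPM. When the cells were clustered without the receptor genes, 14 *S1pr5* UMIs fell in 1 cluster of 541 KO and 107 DKO cells named monocyte/macrophage-like, and 1 in another. *Klf2*, the transcription factor that drives *S1pr1* in lymphocytes, was at 843 CPM in KO and 967 CPM in DKO nonclassical monocyte-like cells. These cells had 0 *S1pr1* UMIs, which in so few cells allows up to 31.6 CPM in KO and 55.8 CPM in DKO. *S1pr3* had 16 UMIs in KO, 12 of them in monocyte/macrophage-like cells at 1.44 CPM (0.743 to 2.51), 2 in B cell-like and 2 in ungated cells, and 1 UMI in DKO. No kept cell held more than 1 UMI of *S1pr3* or of *S1pr5*.

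The genes whose level followed a receptor most closely were looked up over 14 points, the 7 classes with at least 20 cells in each library taken in each library, by Pearson's r of log2(CPM + 10). These r values only describe the points, which share libraries and depth. For *S1pr1* they were *Gm8369* (0.97), *Ptprcap*, which encodes a partner of CD45, *Gpr174*, a lysophosphatidylserine receptor, *Itgb3* and *Ablim1* (each 0.96). For *S1pr4* they were *Cers4*, another ceramide synthase, with the GTPase genes *Gimap8*, *Gimap4* and *Gimap5* (each 0.99), and *Pdcd4* (0.98). For *S1pr2* they were *Cped1* and *Sh2b2* (0.95) and *Clec4e*, which encodes the C-type lectin Mincle, *Ddx3x* and *Nod1* (0.94). By Spearman's rho the top 5 shared none of these genes for *S1pr1* and *S1pr4*, and 2, *Cped1* and *Clec4e*, for *S1pr2*.

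The next comparison set DKO against KO within each class. *S1pr1* was lower in DKO B cell-like cells and higher in DKO T cell-like cells. The log2 ratio of DKO over KO was -0.67 (-1.16 to -0.20) in B cell-like cells and 0.67 (0.05 to 1.24) in T cell-like cells. Neither was past 2-fold, which 10.9% of 6652 genes in B cell-like cells and 17.8% of 8226 genes in T cell-like cells were. The interval left out 0 for *S1pr1* in both classes, as it did for 9.47% and 15.9% of those genes, whose median log2 ratios were 0.05 and -0.07. Such intervals treat the UMIs of 1 cell as independent draws and so leave out the spread over cells. By share of cells with *S1pr1*, the KO and DKO intervals overlapped in both classes. They were 26.9% to 40.3% and 19.1% to 33.4% in B cell-like cells, and 8.9% to 17% and 14.9% to 31.9% in T cell-like cells. Without the DKO cell that held most *S1pr1* UMIs the T cell-like ratio was 0.52 (-0.13 to 1.11), an interval that takes in 0. Without the KO cell that held most it was 0.82 (0.19 to 1.41). In thinned cells the B cell-like ratio was -0.25 (-0.92 to 0.39). Without cells that carried a marker of another immune compartment, an alternative chosen after the values had been seen, the T cell-like ratio turned to -0.34 (-1.50 to 0.60), on 176 KO and 70 DKO cells. With the dendritic cell marker *Ccr7*, which lymphocytes also express, not counted as such a marker it was 0.45 (-0.25 to 1.10). The B cell-like ratio was -0.60 in each of these settings, with an interval from -1.55 to 0.25 in the former, which takes in 0, and from -1.12 to -0.12 in the latter. The direction in T cell-like cells is thus not settled by these counts. B lineage genes outside the gate summed to 18.5 CPM in KO and 21.9 CPM in DKO T cell-like cells, with 4 and 6 of the 7 at 0. *S1pr4* was 21.6 against 33.5 CPM in B cell-like cells, with a log2 ratio of 0.63 (-0.58 to 1.88), and 49.0 against 61.0 CPM in T cell-like cells, with a ratio of 0.33 whose interval began at -0.41. Both intervals took in 0, and both ratios turned below 0 in 1 alternative, to -0.80 in B cell-like cells without those that carried a marker of another compartment and to -0.22 in thinned T cell-like cells.

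**Figure D2:**
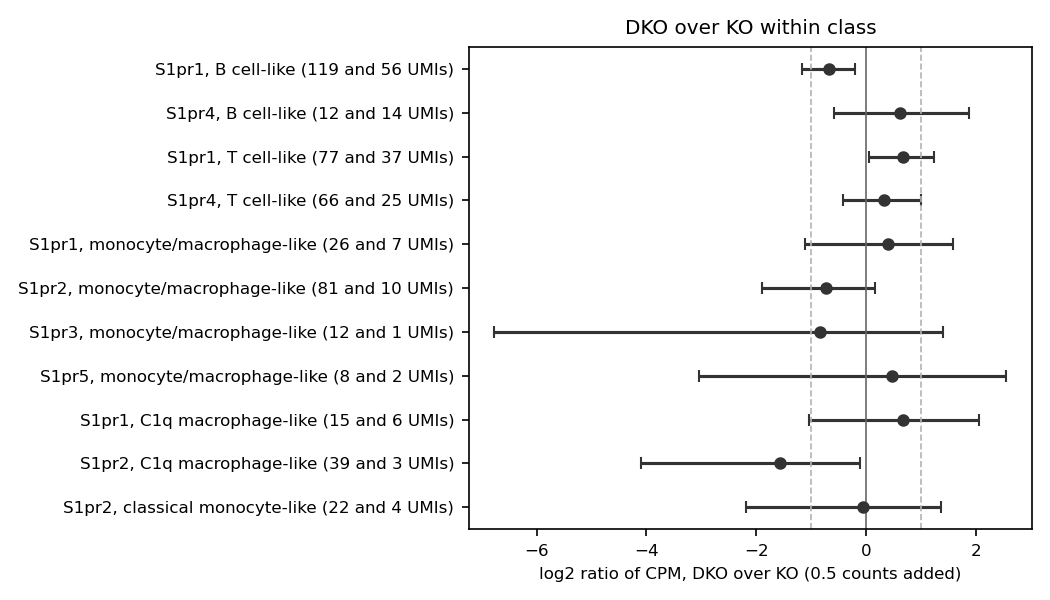
DKO over KO within class for every receptor and class with at least 10 UMIs over both libraries. The horizontal axis is the log2 ratio of CPM with 0.5 counts added, bars are exact conditional 95% intervals, dashed lines mark 2-fold, and labels give the UMIs in KO and DKO. *S1pr1* lies below 0 in B cell-like cells (-0.67) and above 0 in T cell-like cells (0.67), and only *S1pr2* in C1q macrophage-like cells (-1.56) lies past a 2-fold line.

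In monocyte/macrophage-like cells 4 receptors had at least 10 UMIs. *S1pr2* was 9.71 CPM in KO, from 81 UMIs, and 5.63 CPM in DKO, from 10 UMIs, log2 ratio -0.73 (-1.90 to 0.17). *S1pr1* had a ratio of 0.41 (-1.11 to 1.58), *S1pr3* of -0.83 (-6.77 to 1.40) and *S1pr5* of 0.47 (-3.04 to 2.56). None was past 2-fold and all 4 intervals took in 0, against 10.5% of 10748 genes past 2-fold and 21.4% with an interval that left out 0. With at least 3 of 6 markers asked of each cell, however, *S1pr2* was 9.48 CPM in KO and 2.71 CPM in DKO, past 2-fold with log2 ratio -1.65 (-3.73 to -0.38). Within the subclasses, *S1pr2* was 9.89 and 2.91 CPM in C1q macrophage-like cells, from 39 and 3 UMIs, log2 ratio -1.56 (-4.10 to -0.11). Of 9832 genes tested in these cells, 11.2% were past 2-fold and 18.1% had an interval that left out 0. In classical monocyte-like cells *S1pr2* had a ratio of -0.05 (-2.19 to 1.37). The C1q result rests on 3 DKO UMIs, and without the 5% of cells with the highest doublet scores its ratio was -1.24 (-3.79 to 0.23). Its interval took in 0 in 5 alternatives in all. The 7 genes listed for neutrophils and kept out of the gate summed to 2916 and 3021 CPM in the C1q macrophage-like cells. There 0 and 1 of the 7 were at 0, and the sums differed little between the libraries. Over all monocyte/macrophage-like cells they summed to 3752 and 2383 CPM, with none of the 7 at 0. The sum was 13213 CPM in KO Arg1 Nos2 inflammatory macrophage-like cells and 1399 CPM in KO classical monocyte-like cells. The list includes *Cxcl2*, which the paper shows in colonic macrophages, so the sum does not measure neutrophil RNA alone. The part of neutrophil RNA in the *S1pr2* values was not tested.

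Lymphocytes were then split by 2 gene lists that hold neither receptor: 5 circulation genes (*Klf2*, *Ccr7*, *Lef1*, *Tcf7*, *Il7r*) and 6 tissue retention genes (*Cd69*, *Cxcr6*, *Itgae*, *Rgs1*, *Itga1*, *Cd44*). Since *Klf2* drives *S1pr1* in lymphocytes, the split is not independent of *S1pr1*, and no share of all genes was taken beside it. *S1pr1* was concentrated in T cell-like cells with more detected circulation than retention genes. In KO those 63 cells had 197 CPM (148 to 257), from 54 UMIs, and the 172 cells with more retention genes had 22.7 CPM (13.9 to 35.0), from 20 UMIs. This was an 8.7-fold difference, with an interval of the log2 ratio from 2.36 to 3.94. In DKO 45 cells had 158 CPM (104 to 230.1), from 27 UMIs, and 30 cells had 7.77 CPM (0.197 to 43.3), from 1 UMI, log2 ratio 3.79 (1.75 to 9.70). *S1pr4* did not follow this split beyond its intervals in T cell-like cells, with 58.5 against 46.5 CPM in KO and log2 ratio 0.36 (-0.60 to 1.20), and 58.6 against 69.9 CPM in DKO and log2 ratio -0.26 (-1.71 to 1.22).

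B cell-like cells were mostly of the circulation kind, 111 of 201 in KO and 90 of 155 in DKO. Their *S1pr1* level was 259 CPM (203 to 325) in KO against 53.5 CPM (14.6 to 137) in the 17 cells with more retention genes, log2 ratio 2.12 (0.86 to 4.19). In DKO the levels were 131 CPM (88.7 to 185) and, in 9 cells with 5 UMIs, 129.5 CPM (42.1 to 302), log2 ratio -0.10 (-1.36 to 1.73), so the split of B cell-like cells was seen in the KO library alone, on 4 UMIs in its smaller group. In thinned cells the KO log2 ratio was 1.44 (-0.62 to 7.36), whose interval takes in 0, and the DKO levels were 151 CPM in the circulation and 333 CPM in the retention group, the latter from 4 UMIs. Among B cell-like cells with equal numbers the level was 209 CPM (KO) and 141 CPM (DKO). The *S1pr4* counts of the B cells with more retention genes were 1 UMI in KO and 2 in DKO, too few to compare.

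**Figure D3:**
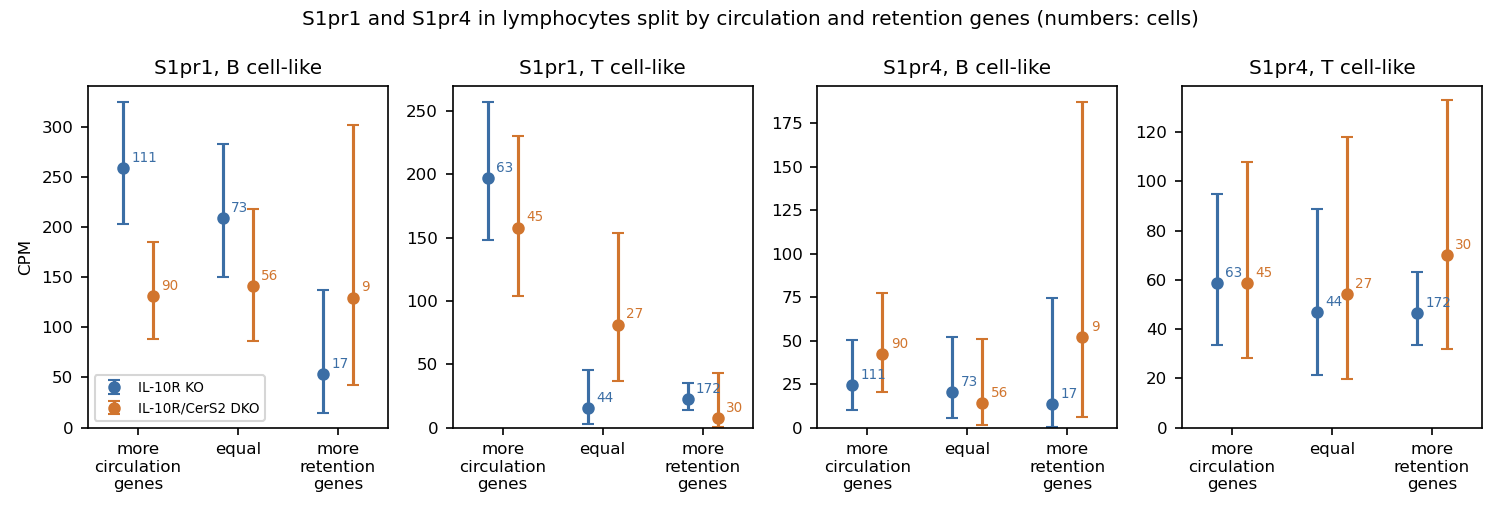
*S1pr1* and *S1pr4* in B and T cell-like cells split by the number of detected circulation and retention genes. The vertical axis is CPM on a linear scale with its own range in each panel, points are the KO (blue) and DKO (orange) library, bars are exact 95% Poisson intervals and the numbers beside the points are cells. *S1pr1* in T cell-like cells drops from 197 and 158 CPM in the circulation group to 22.7 and 7.77 CPM in the retention group, while *S1pr4* in these cells stays between 46.5 and 69.9 CPM.

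The makeup of the T cell-like class differed between the libraries in the same split. Cells with more circulation genes were 22.6% (17.8 to 27.9) of T cell-like cells in KO and 44.1% (34.3 to 54.3) in DKO, and cells with more retention genes 61.6% (55.7 to 67.4) and 29.4% (20.8 to 39.3). In thinned cells the circulation share was 21.4% and 43.1%. Within the circulation group *S1pr1* was 197 CPM in KO and 158 CPM in DKO with log2 ratio -0.31 (-1.04 to 0.37), and within the retention group 22.7 and 7.77 CPM, with an interval of the log2 ratio from -6.92 to 1.10. Neither group was higher in DKO, while cells with equal numbers held 3 UMIs in 44 KO cells and 9 in 27 DKO cells, or 15.6 CPM (3.21 to 45.6) and 81.3 CPM (37.2 to 154). In thinned cells the order within the circulation group was the other way, at 158 CPM in KO and 242 CPM in DKO, from 14 and 16 UMIs. How much of the class difference lies in the mix of cells and how much within a group was therefore not settled. In B cell-like cells the shares were close, 55.2% (48.1 to 62.2) and 58.1% (49.9 to 65.9) of the circulation kind, and *S1pr1* within that group was 259 and 131 CPM, log2 ratio -0.98 (-1.64 to -0.37). In thinned cells the levels of that group lay closer together, at 190.5 CPM in KO and 151 CPM in DKO, from 24 and 17 UMIs.

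T cell-like cells were also divided by single markers, a choice made after the values had been seen. Cells with *Cd8a* or *Cd8b1* and no *Cd4* had 27.7 CPM (13.8 to 49.6) of *S1pr1* in KO, from 11 UMIs in 4 of 69 cells. In DKO they had 243 CPM (142 to 389.5), from 17 UMIs in 8 of 17 cells. The log2 ratio was 3.11 (1.96 to 4.37). In cells with *Cd4* and no *Cd8* it was -0.01 (-3.44 to 1.76), where 9 DKO cells held 2 UMIs. These intervals count UMIs of the same cell as independent, and no share of all genes was taken in these subsets. With so few cells the ratios describe where the UMIs lay and do not show a genotype difference. T cell-like cells with at least 2 NK/innate lymphocyte markers had 42.4 and 44.7 CPM of *S1pr1*, and the others 71.2 and 145 CPM, log2 ratio 1.04 (0.29 to 1.73). The 21 KO cells with *Foxp3*, the factor of regulatory T cells, had 51.0 CPM (16.6 to 119) of *S1pr1* and 91.9 CPM (42.0 to 174) of *S1pr4*. No *S1pr1* UMI was found in the 10 KO and 1 DKO T cell-like cells with *Trdc*, a γδ T cell gene.

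Genes that set the receptors' level or surface display were read beside them. In T cell-like cells *Klf2* was at 72.7 CPM in KO and 171 CPM in DKO with log2 ratio 1.23 (0.77 to 1.69), *Rgs1*, which dampens Gi signals of receptors such as S1PR1, was at 1070.3 and 749 CPM, log2 ratio -0.51 (-0.70 to -0.34), and *Cd69* was at 157 and 156 CPM. In B cell-like cells *Klf2* was at 142 and 139 CPM, and *Cd69* at 108 and 168 CPM, log2 ratio 0.64 (0.12 to 1.16). *Foxo1*, which acts upstream of *Klf2*, was at 119 CPM in T cell-like cells of both libraries. *Klf2*, *Cd69* and *Rgs1* are members of the split lists, so their values are not independent of it.

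The 38 listed genes of the S1P pathway and of related receptors (pathway genes below) were compared in the same way. Of 28 with at least 10 UMIs over lymphoid and myeloid cells, 12 were lower in lymphoid cells by 2-fold in both libraries and 4 higher. Over all genes with that minimum the shares were 16.6% and 17.0%. Myeloid cells held more of the UMIs, 9001940 against 2060046 in KO and 2096979 against 862462 in DKO. A gene confined to lymphoid cells thus reaches the minimum less readily than one confined to myeloid cells. The part of this in the 12 and the 4 was not tested. The 12 were the kinases *Sphk1* and *Sphk2*, the lyase *Sgpl1*, the phosphatase *Plpp1*, the ceramidases *Asah1* and *Acer3*, the G protein genes *Gna12* and *Gnaq*, the arrestins *Arrb1* and *Arrb2*, and the lysophosphatidic acid receptors *Lpar1* and *Lpar6*. The 4 were *Grk6*, a kinase that desensitises receptors, *Foxo1*, *Cd69* and the S1P exporter *Spns2*. *Spns2* had 6 lymphoid and 7 myeloid UMIs in KO and 1 and 0 in DKO, so it is among the 4 only through the added counts. *Plpp1*, with 26 myeloid and 0 lymphoid UMIs in KO and 2 and 0 in DKO, is among the 12 only through the added counts. *Sgpl1* was at 109 and 143 CPM in monocyte/macrophage-like cells, 35.9 and 40.7 CPM in B cell-like and 20.8 and 14.6 CPM in T cell-like cells. *Sphk1* had 63 and 10 UMIs in monocyte/macrophage-like cells and 0 in B and T cell-like cells. *Gnai2*, which encodes the Gi subunit that S1PR1 uses, differed less, with log2 ratios of lymphoid over myeloid of -0.50 and -0.51. The carrier gene *Apom* had 0 UMIs in all kept cells, and the exporter *Mfsd2b* had 1 in KO and 0 in DKO.

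**Figure D4:**
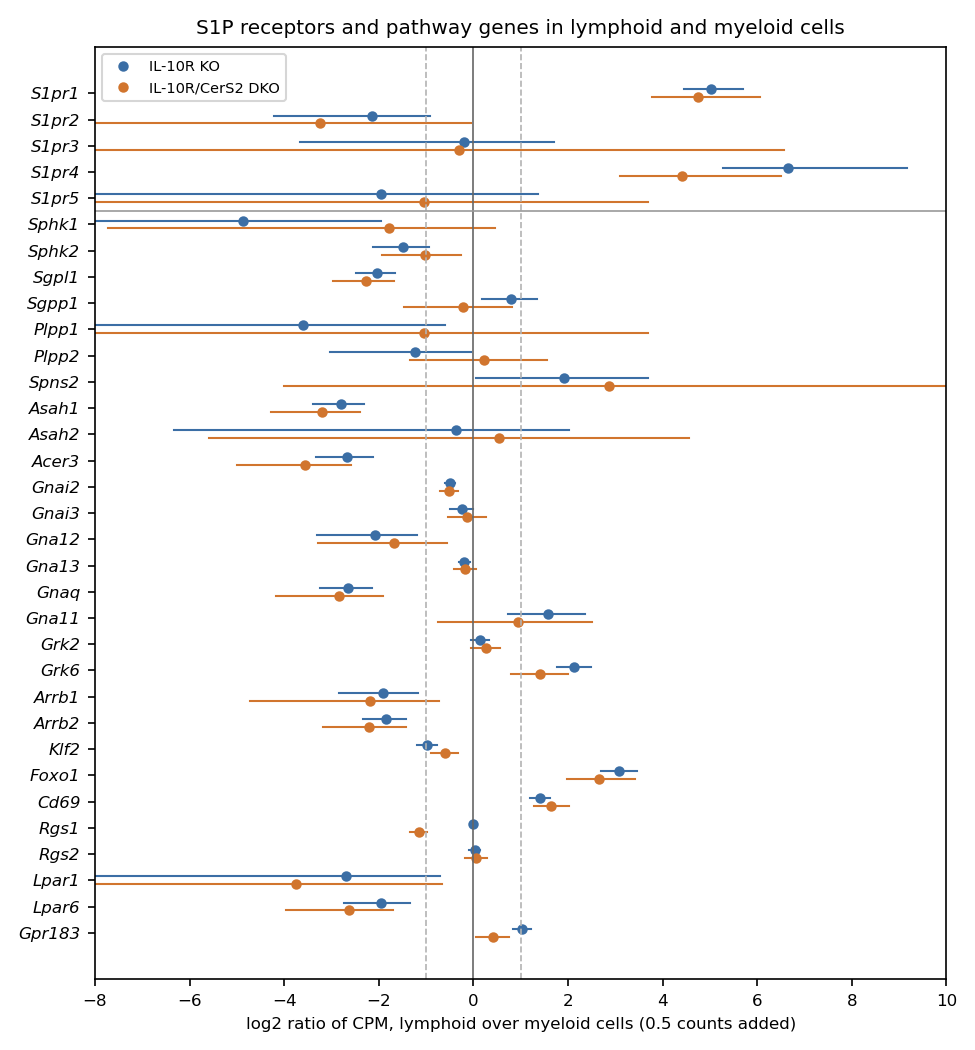
Lymphoid over myeloid level of the 5 receptors (above the line) and of the listed pathway genes with at least 10 UMIs. The horizontal axis is the log2 ratio of CPM with 0.5 counts added, points are the KO (blue) and DKO (orange) library, lines are exact conditional 95% intervals drawn to the edge where they go beyond it, and dashed lines mark 2-fold. *S1pr1* (5.03 and 4.74) and *S1pr4* (6.65 and 4.42) lie farther to the lymphoid side than any pathway gene, and 12 pathway genes lie past 2-fold on the myeloid side in both libraries, *Plpp1* only through the added counts.

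Between DKO and KO most pathway genes stayed within 2-fold in each class. In B cell-like cells 16 of the 38 genes had at least 10 UMIs, and 1 was past 2-fold higher (*Sphk2*, 8.98 and 21.5 CPM) and 1 lower (*Lpar6*, 16.2 and 4.79 CPM), both with intervals that took in 0. In T cell-like cells 2 of 22 were past 2-fold higher (*Klf2* and *Gna12*) and 2 lower (*Asah1* and *Gnaq*), and of these only the interval of *Klf2* left out 0. In monocyte/macrophage-like cells none of 26 was past 2-fold higher and *Plpp1* was lower, on 25 and 2 UMIs. Over all genes 10.9%, 17.8% and 10.5% were past 2-fold in these classes, and the list's counts lay near or under these shares. The median log2 ratios of the list were -0.05, -0.17 and 0.17, beside 0.05, -0.07 and 0.09 over all genes. The interval lay above 0 for 3 genes in B cell-like cells, *Gnai2* (0.46), *Grk2* (0.53) and *Cd69* (0.64), and below it for *Gpr183* (-0.56), a receptor for oxysterols, beside 9.47% of all genes with an interval that left out 0. In T cell-like cells it lay above 0 for *Klf2* and below it for *Rgs1* (-0.51) and *Gpr183* (-0.81), beside 15.9%. In monocyte/macrophage-like cells, where 21.4% of all genes had such an interval, 7 intervals lay above 0, those of *Sgpl1* (0.40), *Asah1* (0.28), *Acer3* (0.46), *Grk6* (0.67), *Klf2* (0.40), *Rgs1* (0.17) and *Lpar6* (0.83), and those of *Gna13* (-0.28) and *Rgs2* (-0.23) lay below it.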

How the data were processed

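Colon cells of 2 chimera groups were profiled in 1 library each with 3′ droplet single-cell RNA-seq. The deposited counts are raw UMIs per gene and barcode, produced by the authors through alignment to mm10 in Cell Ranger 6.0.1. The submitters' processing notes also name Seurat 4.3.0. No column of per-sample values was left unmapped. There were 2584 barcodes and 12549471 UMIs in KO, and 742 barcodes and 3414944 UMIs in DKO. The study's cell filter was used, which keeps 300 to 5000 genes per cell and a mitochondrial share of up to 10%.

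A cell was placed in the lineage of which it showed most of 6 markers. It needed at least 2 markers, more than for any other lineage of its compartment, and at least 2 times those of any lineage of another compartment. The compartments were B, T/NK, myeloid and non-immune. The non-immune classes held 13 KO and 3 DKO epithelial cell-like cells and 2 KO endothelial or stromal cell-like cells. Subclasses of monocyte/macrophage-like cells used their own markers. Levels are summed UMIs per 1000000 of the class, with exact Poisson intervals, shares have exact Clopper-Pearson intervals, and ratios have 0.5 counts added to each sum and exact conditional intervals from the counts without them. A difference was called at 2-fold for genes with at least 10 UMIs over both sides compared. A count of 0 allows up to 3 counts. Cells were thinned to 1500 UMIs to compare shares, which left out 244 KO and 71 DKO cells. The ratio calculation was tested on simulated data.

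The genes named are the 5 receptors, 38 genes of the S1P pathway and related receptors, the 2 split lists, *Cers2* as a check, and for each receptor with at least 50 UMIs the 5 genes with the highest Pearson's r. A member's DKO over KO ratio is given from 10 UMIs on. The members and lists were chosen with earlier results of these data known. A gene of the circulation list is not reported here and was left out of the split, a change to the planned list made after the values had been seen. Gene positions are from GENCODE vM21 and start regions from RefSeq. Alternatives were the cell filter, a stricter and a looser gate, Seurat clusters, doublet removal, thinning, cell means, single cells left out, TMM scaling, the added count and the UMI minimum. Doublets were not removed in the values reported, since Scrublet called only 6 KO and 2 DKO barcodes. Tools were Python 3.11.15, scanpy 1.11.5, scipy 1.17.1, R 4.3.3, Seurat 5.3.0 and edgeR 4.0.16.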

Additional observations from a re-analysis of the deposited data

Results flagged for a closer look

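With all gated cells counted at full depth, *S1pr1* differed between the libraries in opposite directions in the main lymphocyte classes. DKO over KO was -0.67 (log2) in B cell-like cells, from 119 and 56 UMIs, and 0.67 in T cell-like cells, from 77 and 37 UMIs. The difference between the classes was not tested, since each genotype had 1 library, and in T cell-like cells the direction depended on which cells were counted. It turned to -0.34 without cells that carried a marker of another immune compartment. The sign held when *Ccr7*, which is also in the circulation list, was not counted as such a marker, but there the interval took in 0. In thinned B cell-like cells the ratio was -0.25 (-0.92 to 0.39).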

How the results depend on the processing

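No paired analysis was possible because there was 1 library per genotype, so no replicate could be left out either. Of 98 DKO over KO values under the alternatives 94 kept their sign. The others were *S1pr1* in monocyte/macrophage-like cells without the DKO cell that held most (-0.03), *S1pr4* in thinned T cell-like cells (-0.22), and, without cells carrying a marker of another immune compartment, *S1pr1* in T cell-like cells (-0.34) and *S1pr4* in B cell-like cells (-0.80). In that setting, chosen after the values had been seen, the DKO levels were 38.7 CPM for *S1pr1* in T cell-like and 8.66 CPM for *S1pr4* in B cell-like cells. It kept 60 KO and 45 DKO B cell-like cells, and 173 and 145 with *Ccr7* not counted. The cause of these shifts was not tested. The T cell subsets, the split of thinned cells and the circulation list of 5 genes were also set after the values had been seen. All 60 lymphoid over myeloid ratios, those of *S1pr1* and *S1pr4* in both libraries and of *S1pr2* in KO, kept their sign under the alternatives. *S1pr2* in DKO, *S1pr3* and *S1pr5* are not among the 60. The 30 split ratios of *S1pr1* in T cell-like cells and in KO B cell-like cells also kept their sign, but in thinned KO B cell-like cells the interval took in 0. DKO B cell-like cells are not among the 30. The interval of *S1pr1* DKO over KO left out 0 in 11 of 13 alternatives for B cell-like and 10 of 13 for T cell-like cells, and *S1pr2* in C1q macrophage-like cells ran from -2.16 to -1.24, with an interval that took in 0 under Seurat clusters, removal of the top 5% of doublet scores, thinning and both settings on markers of another compartment. With at least 3 of 6 markers the *S1pr2* ratio in monocyte/macrophage-like cells was -1.65 (-3.73 to -0.38), past 2-fold. In thinned cells T cell-like DKO levels were 137 CPM for *S1pr1* and 39.2 CPM for *S1pr4*, and 967 genes were past 2-fold in T cell-like cells in place of 1463. With a minimum of 50 UMIs the counts past 2-fold were 41 genes in B cell-like, 309 in T cell-like and 336 in monocyte/macrophage-like cells, and with 1 UMI 3507, 3214 and 2644, against 728, 1463 and 1130. Depth limits *S1pr3*, *S1pr5* and every class under 50 cells to presence or a bound. Levels, ratios and orders given for them above describe the counts and settle no order.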

Other observations

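Ungated cells, which showed no clear lineage, held 8 *S1pr1*, 13 *S1pr2*, 2 *S1pr3*, 5 *S1pr4* and 5 *S1pr5* UMIs among 289 KO cells, and 5, 1, 0, 2 and 0 among 97 DKO cells. The 141 KO and 12 DKO barcodes removed by the cell filter held 1 receptor UMI, of *S1pr2* in KO. Over all kept cells without regard to class, *S1pr1* was at 18.6 CPM in KO and 31.2 CPM in DKO, with B cell-like cells making up 8.23% and 21.2% of kept cells. *S1pr2* over all kept cells was at 8.38 and 3.53 CPM, with monocyte/macrophage-like cells at 59.6% and 41.4%. These pooled values take in the different makeup of the libraries. The KO barcodes with the highest 5% of doublet scores took in 4 of 129 cells that showed *S1pr1* and 7 of 68 that showed *S1pr4*. They also took in 7 barcodes that showed *S1pr2*, which was found in 92 kept KO cells and as 1 UMI among filtered-out barcodes. In DKO they took in 1 of 74 cells with *S1pr1*, 2 of 33 with *S1pr4* and 2 of 12 with *S1pr2*. *S1pr4* and *S1pr2* were thus above the 5% of all barcodes, on few cells. These differences were not tested.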
